A study of Mus musculus with 11 samples.

Results

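miR-221 and miR-222 are a pair of related mouse miRNAs processed from neighbouring hairpins, and they were followed here in the oviduct after lipopolysaccharide (LPS), the endotoxin of Gram-negative bacteria. They were taken by their probe names, mmu-miR-221 and mmu-miR-222. Earlier results of these data were known when they were chosen. They make up 2 of 566 mouse miRNA probes on the panel and 2 of the 205 probes detected. miRNAs are short RNAs that guide Argonaute proteins to matching sites in mRNAs, which lowers the output of those mRNAs. The bases that do most of the pairing form the seed, bases 2 to 8 from the 5′ end.

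As background, miR-221 and miR-222 are usually treated as 1 unit, since their hairpins lie side by side and their seeds are the same. In human and rodent cells they are known to repress Kit, the receptor of stem cell factor, and Cdkn1b (p27Kip1), a brake on the cell cycle. They are abundant in endothelium and in proliferating vascular smooth muscle. In mouse macrophages both have been described as rising on prolonged LPS exposure, with miR-222 acting on Smarca4 (Brg1), a chromatin remodelling ATPase.

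The mature sequences are shown because they say what the pair shares and where the 2 probes can be told apart. They came from RefSeq (GRCm38.p6), the seed is in capitals, and the panel's arm-less names were read as the 3p arms.
miR-221-3p: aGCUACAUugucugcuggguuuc
miR-222-3p: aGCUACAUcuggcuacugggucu
miR-1928: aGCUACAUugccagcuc
The 2 members were identical over their first 8 bases. Over all 23 positions set side by side without gaps, 11 were the same. Past base 8 the longest run found in both was 6 bases. Of 1738 mature miRNAs in the RefSeq table, 3 carried this seed: the 2 members and miR-1928, a short miRNA from chromosome 1 that equals miR-221 over its first 10 bases. The miR-1928 probe counted 40 to 57 barcodes and was above the detection bound in 0 of 11 lanes, so it gave no level.

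The hairpins are shown because both members come from 1 short stretch of the X chromosome. Each reads 5′ to 3′ from the minus strand, with the 3p arm in capitals.
Mir221: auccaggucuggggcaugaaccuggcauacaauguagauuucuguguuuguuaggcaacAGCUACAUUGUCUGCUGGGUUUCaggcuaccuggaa
Mir222: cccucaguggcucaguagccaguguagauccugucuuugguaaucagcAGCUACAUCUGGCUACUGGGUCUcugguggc
In GRCm38.p6, Mir222 lies at chrX:19146893-19146971 and Mir221 at chrX:19146294-19146388, so on the minus strand Mir222 comes first and 504 bases separate the hairpins. Both are annotated as miRNA genes.

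All mice were female CD1, an outbred strain, 6 to 8 weeks old, injected intraperitoneally on the day of estrus and killed 24 h later. The 3 control mice received 0 µg of LPS, the 4 low dose mice 2 µg and the 4 high dose mice 10 µg, of Escherichia coli serotype 055:B5, dissolved in 100 µL of phosphate-buffered saline. The design text plans 4 mice per treatment, while the deposited counts hold 3 controls. Total RNA of each oviduct was counted on the nCounter mouse miRNA assay, in which a fluorescent barcode is counted for each captured molecule with no amplification. By the labels each sample is its own animal. Total miRNA counts ran from 451323 to 684771 per mouse. Of the epithelial miRNAs listed, 8 of 8 were detected, and of the smooth muscle miRNAs 4 of 5, among them miR-145 at 31481 ± 3087 normalized counts in control mice (SD, n = 3), as an oviduct holds both tissues. Lanes followed the treatment order (1, 2 and 4 held controls, 5 to 8 low dose mice, 9 to 12 high dose mice), so an effect of the lane cannot be told apart from the treatment.

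Both members were modest in level and were counted in every lane. As deposited, miR-221 gave 229, 163 and 183 barcodes in control mice 1 to 3, then 113, 151, 214 and 182 in low dose mice 1 to 4 and 84, 228, 119 and 216 in high dose mice 1 to 4. miR-222 gave 134, 109 and 141 in the controls, 238, 229, 333 and 269 at the low dose and 159, 303, 287 and 231 at the high dose. Before any scaling, miR-221 was thus the higher count of the 2 in every control mouse and miR-222 in every LPS mouse. The detection bound of a lane was the mean plus 2 SD of its 8 negative controls. Both members exceeded it in 11 of 11 lanes. The margin was narrowest for miR-221 in high dose mouse 1, at 1.18 times the bound, and in low dose mouse 4, at 1.27 times a bound that a single negative control (NEG_C, 162 barcodes) raised to 143. Averaged over all mice, miR-222 ranked 126th and miR-221 138th of 205 in normalized count, with means of 218 and 170 against a median miRNA at 353. Counts of different probes are not numbers of molecules, since capture and ligation differ between probes.

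miR-222 rose at both doses, to nearly the same level. Its normalized counts (scaled by TMM, a trimmed mean of the log ratios between lanes, over the detected miRNAs) were 128, 124 and 146 in control mice 1 to 3. They were 228, 234, 279 and 253 in low dose mice 1 to 4 and 199.6, 297, 277 and 238 in high dose mice 1 to 4. The lowest LPS mouse lay above the highest control, and the 2 doses overlapped. Group means were 133 ± 11.5 (SD, n = 3), 248 ± 23.2 (SD, n = 4) and 253 ± 43.1 (SD, n = 4). The low dose stood 1.87-fold above control (log2 change 0.91 ± 0.14 SE, 95% interval 0.60 to 1.21, edgeR quasi-likelihood adjusted p = 0.00254). The high dose stood 1.91-fold above control (log2 change 0.93 ± 0.14 SE, 95% interval 0.63 to 1.24, edgeR adjusted p = 0.000778). Among all 205 miRNAs its p was the 2nd smallest at the low dose and the 5th smallest at the high dose. For reference, 3.41% of the 205 passed as higher at the low dose and 10.2% at the high dose, and 10.7% and 13.7% had all LPS mice above all controls. Both comparisons use the same 3 control mice, so they are not separate evidence.

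miR-221 did not pass in any comparison. Its normalized counts were 219, 185 and 189 in control mice 1 to 3. They were 108, 154, 179 and 171 in low dose mice 1 to 4 and 105, 224, 115 and 223 in high dose mice 1 to 4. At the low dose all 4 mice lay below the lowest control, by a small margin for mouse 3, as did 13.2% of the 205 miRNAs. At the high dose 2 mice lay near the lowest low dose mouse and 2 slightly above the highest control, with nothing in between. Group means were 198 ± 18.5 (SD, n = 3), 153 ± 31.8 (SD, n = 4) and 167 ± 65.4 (SD, n = 4). The low dose differed from control by -0.37 ± 0.26 SE on the log2 scale (95% interval -0.93 to 0.19, edgeR adjusted p = 0.402) and the high dose by -0.24 ± 0.26 SE (95% interval -0.80 to 0.32, edgeR adjusted p = 0.542). The upper bounds lie below the change that miR-222 showed, and the lower bounds correspond to 0.526 and 0.573 of the control level.

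**Figure D1:**
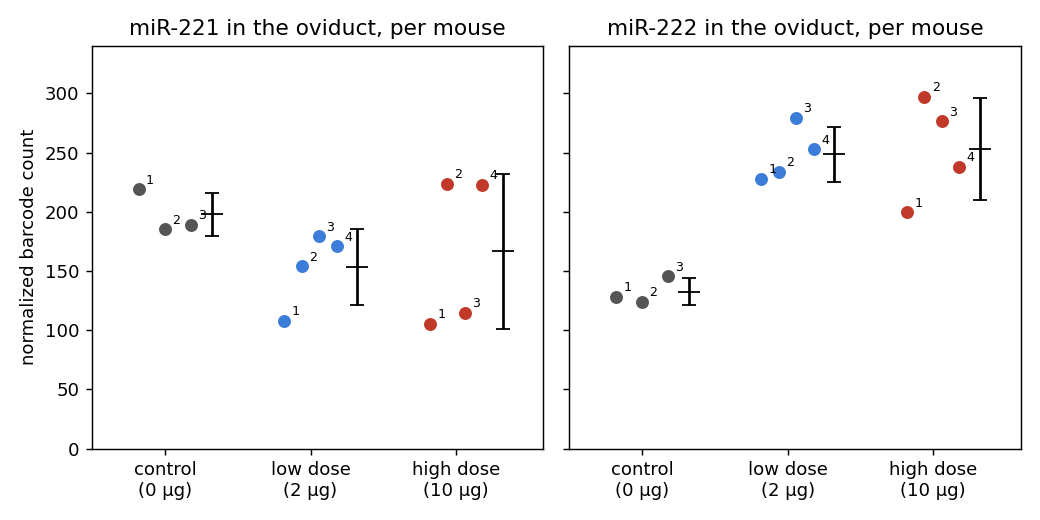
Normalized barcode counts of miR-221 (left) and miR-222 (right) in each mouse by dose group; points are mice with their replicate number, and the bar beside each group is the mean ± SD (n = 3, 4 and 4). All 8 LPS mice sit above all 3 controls for miR-222, between 199.6 and 297 against 124 to 146, while miR-221 in high dose mice splits into 105 and 115 against 223 and 224.

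The spread between mice differed between the members as well. The coefficient of variation of miR-221 was 9.35% in controls, 20.8% at the low dose and 39.2% at the high dose. Over all detected miRNAs the medians were 10.6%, 10.2% and 12.8%, and at the high dose miR-221 had the 7th highest of 205. miR-222 stood at 8.67%, 9.34% and 17.0%. The variances of the groups were not tested against each other.

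The ratio of the 2 counts needs no scaling, since both probes were read in the same lane. The count of miR-222 over that of miR-221 was 0.585, 0.669 and 0.770 in control mice 1 to 3. It was 2.11, 1.52, 1.56 and 1.48 in low dose mice 1 to 4 and 1.89, 1.33, 2.41 and 1.07 in high dose mice 1 to 4. The ratio was below 1 in 3 of 3 controls and above 1 in 8 of 8 LPS mice, with no overlap at either dose. As log2 values the group means were -0.58 ± 0.20 (SD, n = 3), 0.72 ± 0.24 (SD, n = 4) and 0.67 ± 0.52 (SD, n = 4). The groups differed in an exact permutation test of the one-way F statistic over 11550 arrangements (F = 13.3, exact p = 0.0118). With both doses together, a contrast that the design text does not name, the ratio was 2.42-fold higher than in controls (log2 difference 1.27, exact two-sided permutation p = 0.0121, adjusted 0.0485 over 4 contrasts, n = 3 and 8). The two-sided p was the smaller tail doubled, and by that rule 0.0121 is the smallest p these group sizes can give. Without any 1 mouse this contrast had an exact p of 0.0167 to 0.0444, again the smallest possible, and its adjusted value of 0.0667 to 0.178 passed in 0 of 11 such fits. With 1 mouse fewer the adjusted value could not have passed, so these fits say nothing about single mice. Each dose alone against control differed by 1.30 and 1.25 on the log2 scale (exact two-sided permutation p = 0.0571 for both). With 3 against 4 this is also the smallest p that the same rule can give. The test of the ratio is the test of whether the 2 members responded alike. It was read after earlier results for miR-222 were known.

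**Figure D2:**
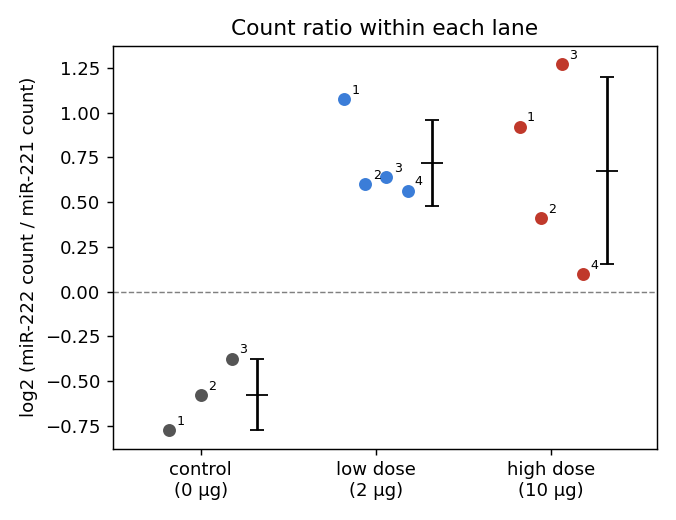
Log2 ratio of the miR-222 count to the miR-221 count within each lane, by dose group; points are mice with their replicate number, bars are mean ± SD (n = 3, 4 and 4), and the dashed line marks equal counts. The 3 controls lie below the line, at -0.77 to -0.38, and the 8 LPS mice above it, at 0.10 to 1.27.

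Between the doses neither member differed beyond its error. miR-222 was 0.03 ± 0.12 SE higher at 10 µg than at 2 µg on the log2 scale (95% interval -0.24 to 0.29, edgeR adjusted p = 0.958). miR-221 was 0.13 ± 0.24 SE higher (95% interval -0.40 to 0.65, edgeR adjusted p = 0.887). The log2 ratio differed by -0.04 (exact two-sided permutation p = 0.914, n = 4 and 4). For miR-222 the interval leaves room for a dose difference of up to 1.23-fold, for miR-221 of up to 1.57-fold. Of the 205 miRNAs, 0.488% passed between the doses. In order of level, control was lowest for miR-222 with the 2 doses not separable above it, and the test ordered no pair of groups for miR-221. Over both doses together miR-222 was 1.89-fold above control (a log2 change of 0.92 ± 0.13 SE with an edgeR adjusted p of 0.000438), while miR-221 stood at -0.30 ± 0.23 SE (edgeR adjusted p = 0.372), where 17.6% of the 205 passed. In the one-way test across the 3 groups miR-222 had an edgeR adjusted p of 0.00153 and miR-221 of 0.533.

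The call of miR-222 was lost under 1 scaling. With the panel's 4 mRNA reference probes as the scale, its change was 0.74 ± 0.38 SE at the low dose (edgeR adjusted p = 0.903) and 0.65 ± 0.38 at the high dose (edgeR adjusted p = 0.387). One of these probes, B2m, the light chain of MHC class I, counted 643 to 931 barcodes in controls, 1608 to 4010 at the low dose and 924 to 5052 at the high dose. Scaled to the other 3 (Actb, Gapdh and Rpl19), miR-222 stood at 1.22 ± 0.29 SE (edgeR adjusted p = 0.0112) and 1.14 ± 0.29 (edgeR adjusted p = 0.0110). Those scalings moved the median of all miRNAs at the high dose by -0.36 and 0.16. Relative to that median miR-222 stood at 1.04 and 1.01, against 0.97 as reported, and miR-221 at -0.14 and -0.20, against -0.21. In high dose mouse 2, B2m was within the control range, at 924 barcodes, and miR-222 was at its highest, 297 normalized counts. In high dose mice 1, 3 and 4, B2m counted 5024, 5052 and 4517 barcodes, and miR-222 stood at 199.6, 277 and 238. A relation between B2m and miR-222 across mice was not tested.

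**Figure D3:**
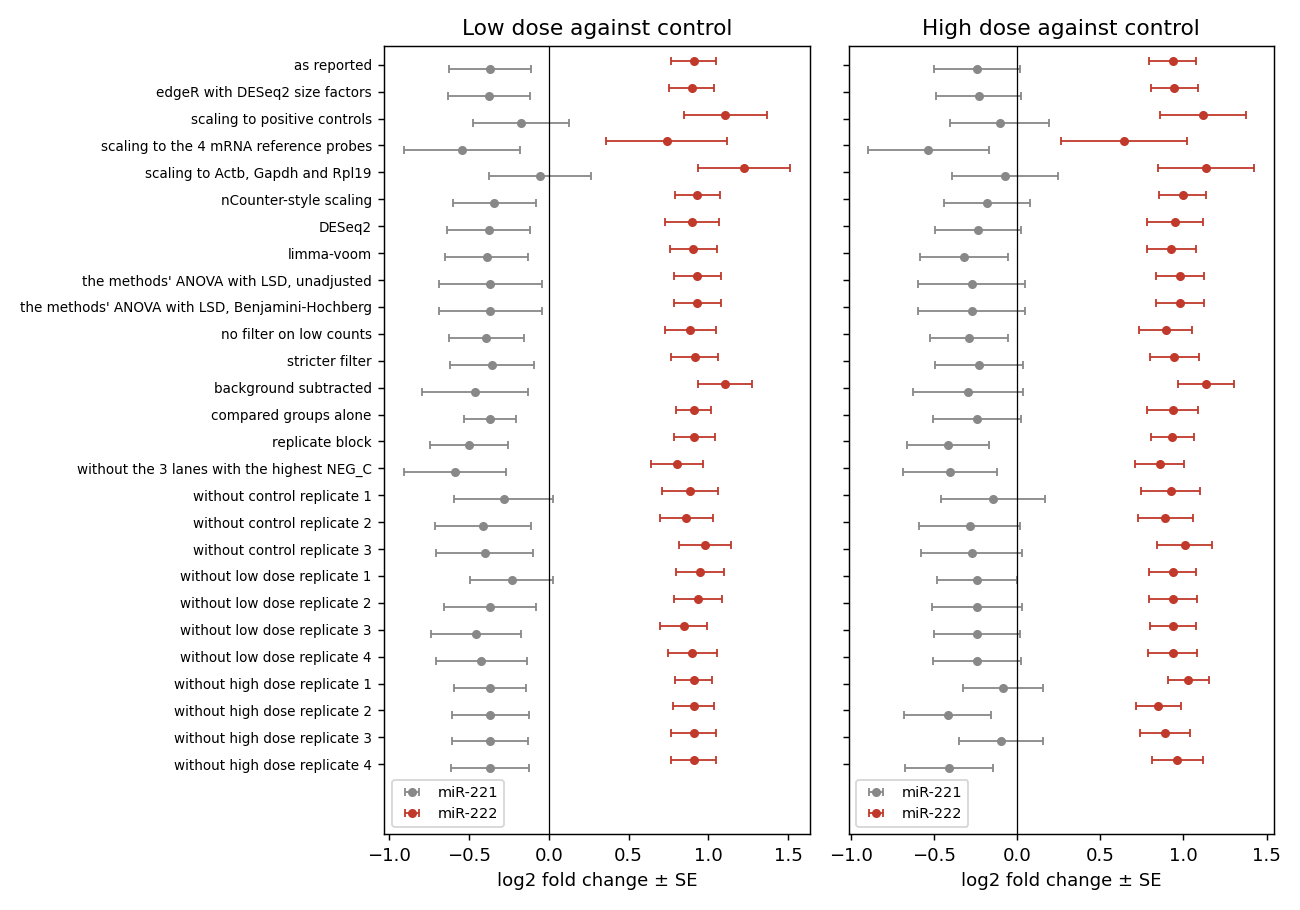
Log2 fold change ± SE of miR-221 (grey) and miR-222 (red) at the low dose (left) and the high dose (right) against control, under the reported fit and each alternative. miR-222 stays to the right of 0, from 0.65 to 1.22, with the widest errors under mRNA scaling; miR-221 stays to the left, from -0.59 to -0.06, with most bars close to or across 0.

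Their hairpins are neighbours, and the likeness of the members across mice differed with whether group differences were kept. The Pearson r of their log2 normalized counts over the 11 mice was -0.22, which put miR-222 154th among the 204 other miRNAs by likeness to miR-221. After each group's mean was removed, r was 0.50. The 4 low dose mice had the same order in both members, while the control mice and the high dose mice did not. These are descriptions: all points share the same lanes, and normalized counts share the scaling.

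The miRNA most like miR-221 over the 11 mice was miR-199a-5p, typical of fibroblasts and other mesenchymal cells, with r = 0.90 (0.90 after removing group means). It ran at 2708, 4543, 3427 and 4043 normalized counts in high dose mice 1 to 4, so the 2 mice high in miR-221 were high in it too. miR-27b (r = 0.82), let-7e (0.77), miR-151-3p (0.71) and miR-450a-5p (0.71) followed, and none of the 5 passed at either dose (edgeR adjusted p from 0.0534 for miR-151-3p at the high dose to 0.836). The miRNA most like miR-222 was miR-30e, with r = 0.93 (0.73 after removing group means), from 406 normalized counts on average in controls to 522 at the low dose and 546 at the high dose. miR-374 (0.85), miR-30b (0.85), miR-32 (0.84) and miR-138 (0.84) followed. Of these 5, miR-30e and miR-30b passed at the high dose (edgeR adjusted p = 0.0124 and 0.00251), where 18.0% of all 205 passed, and none at the low dose, where 5.85% did. The 5 were picked for following miR-222 over all mice, group differences included, so nothing is read from these calls. For miR-138, r was 0.90 after removing group means.

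Other miRNAs made from close hairpins give a scale for the shift in ratio. Among detected probes with 1 RefSeq locus (133 of 205), 19 pairs had hairpins within 1 kb on 1 strand. Some pairs share a probe or a cluster, and the pair list was drawn up after the values of miR-221 and miR-222 were seen, so ranks are descriptions. The mean log2 count ratio of miR-222 to miR-221 moved by 1.30 at the low dose and 1.25 at the high dose. In the other 18 pairs the size of the shift had a median of 0.22 at the low dose and 0.17 at the high dose. The next was miR-300 with miR-376a, at 0.87 and 0.95, a pair with as few as 58 barcodes and groups that overlapped at both doses. miR-221 with miR-222 had as few as 84. Groups did not overlap at the low dose in 7 of the other 18 pairs. In 3 of these they did not overlap at the high dose either: miR-106b with miR-93, miR-200a with miR-429, and miR-23b with miR-27b. These shifts were not scaled by the spread of each pair. The within-group SD of the log2 ratio was 0.37 for miR-221 with miR-222. It was 0.096 for miR-200a with miR-429, whose shifts were 0.51 and 0.36 in size. miR-23a and miR-27a, which both fell at the high dose, shifted in ratio by 0.23. The Pearson r of the 2 members' log2 counts was lower than that of miR-221 and miR-222 in 4 of the 18 pairs.

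**Figure D4:**
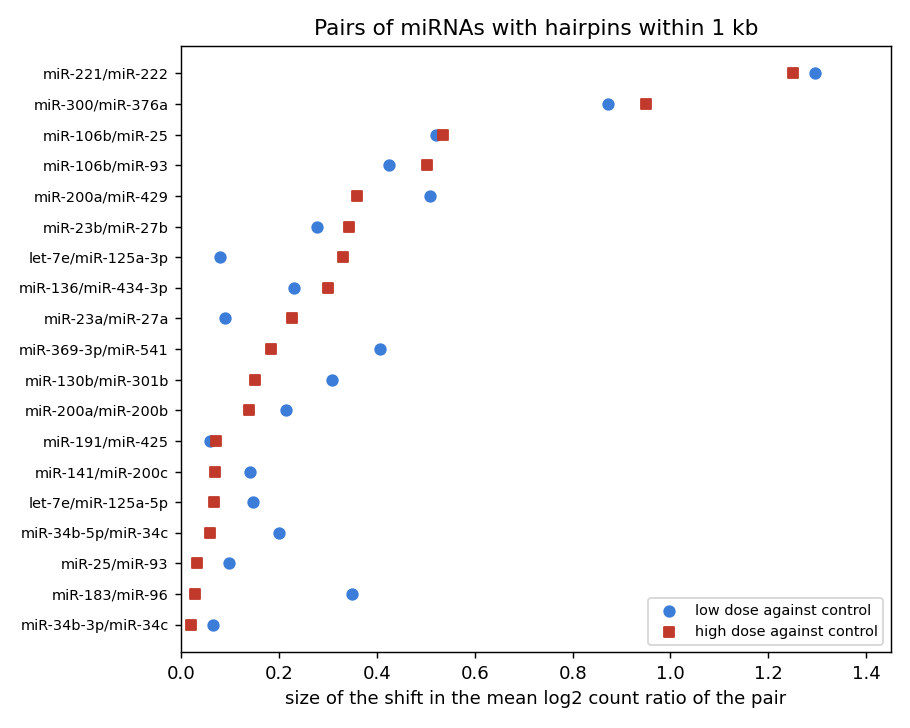
Size of the change in the mean log2 count ratio of 19 pairs of detected miRNAs with hairpins within 1 kb on 1 strand, at the low dose (blue circles) and the high dose (red squares) against control. miR-221 with miR-222 lies farthest to the right at both doses (1.30 and 1.25), followed by miR-300 with miR-376a (0.87 and 0.95).

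Lists of miRNAs typical of cell types and of the LPS response were read beside the pair. In RNA of a whole organ, fewer cells of a type and less RNA per cell cannot be told apart. Of 6 endothelial miRNAs, 5 were detected, the 2 members included. At the low dose miR-222 alone rose, and at the high dose miR-222 and miR-126-5p rose, none fell and 3 did not pass (18.0% of all 205 passed at this dose, 5.85% at the low dose). Of all 205, 10.2% rose at the high dose, so falls were few there too and their absence does not set this list apart. miR-126-5p, from the hairpin of the main endothelial miRNA, went from 957 ± 75.2 to 1568 ± 287 (SD, n = 3 and 4). Its abundant partner miR-126-3p stood at 4455 ± 627 and 4397 ± 591, and miR-130a differed by -0.24 ± 0.09 SE (edgeR adjusted p = 0.0752). The list's median log2 change was -0.08 at the low dose and -0.02 at the high dose, against -0.0015 and -0.03 for all 205. Summed without the members, its 3 other miRNAs ran from 8512 to 9527 normalized counts in controls, 8153 to 9168 at the low dose and 8450 to 9802 at the high dose, ranges that overlap.

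Few members of the other cell type lists passed. For reference, 5.85% of all 205 passed at the low dose and 18.0% at the high dose. The lists are short, so such counts do not set them apart from all miRNAs. Of 5 leukocyte miRNAs detected none passed at either dose, and their sum was 3905 to 5364 in controls, 4896 to 5496 at the low dose and 3676 to 4424 at the high dose. The largest of their changes in terms of p at the high dose were in miR-223, of granulocytes (-0.24 ± 0.12 SE, edgeR adjusted p = 0.185), and miR-142-5p, of all blood lineages (-0.12 ± 0.10 SE, edgeR adjusted p = 0.412). None of 4 smooth muscle miRNAs passed (miR-133a at -0.34 ± 0.14 SE and miR-1 at -0.78 ± 0.33 at the high dose), and none of 3 erythroid ones (miR-144 at 0.53 ± 0.32, miR-486 at -0.28 ± 0.25 and miR-451 at -0.15 ± 0.37). Of 8 epithelial miRNAs, miR-203 rose at both doses and miR-375 fell at the high dose. The part of any of these cell types in the change of miR-222 was not tested.

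Of 14 miRNAs listed as LPS-responsive, 10 were detected, both members included. The list was chosen with earlier results of these data known, so its calls and median are descriptions. Apart from miR-222 itself, miR-203 and miR-21 rose at the low dose, where 3.41% of all 205 rose. At the high dose, where 10.2% of all 205 rose, they were joined by miR-146a, a brake on Toll-like receptor signalling, and miR-155, which activated macrophages induce. None of the 10 fell. Falls were few among all 205 too: 7 of the 12 calls at the low dose and 21 of the 37 at the high dose were rises. The absence of falls thus does not set the list apart. With both members in it, the list's median log2 change was 0.32 at the low dose and 0.37 at the high dose, against -0.0015 and -0.03 for all 205. At the low dose miR-222 stood at 0.91, beside 0.80 for miR-203, 0.82 for miR-146a, which did not pass there, and 0.52 for miR-21. At the high dose miR-222 had hardly moved on, at 0.93, while miR-203 stood at 1.58 and miR-146a at 1.43. Of these, the difference between the doses passed for miR-203. miR-221 was among the members that did not pass, with miR-125b-5p, miR-223, miR-132 and miR-146b.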

How the data were processed

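Barcode counts per probe and lane were used as deposited by the authors, from the nCounter mouse miRNA assay. The deposited columns were treated as estimated counts, since they also hold 1 lane quality measure that is not whole. All 626 probe values per lane were whole, so rounding changed nothing. The file records no normalization and does not name the counting software.

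Detection required a count above the lane's bound, set at 2 SD over the average negative control, in 3 or more lanes (205 of 566 miRNAs). miRNAs were tested in R 4.3.3 with the quasi-likelihood F-test of edgeR 4.0.16, with TMM factors and 1 mean per group, fitted to the 11 mice together; p-values were adjusted by Benjamini-Hochberg over the 205 detected miRNAs and read at 0.05. The SE is the log2 change divided by the square root of F, and 95% intervals use the model's 12.4 degrees of freedom. Normalized counts refer to a library of mean effective size. Count ratios were tested with exact permutation (SciPy 1.17.1), with the two-sided p of a difference taken as the smaller tail doubled. Alternatives covered 5 other scalings with edgeR, DESeq2 1.42.0, limma-voom (limma 3.58.1), the methods' one-way analysis of variance (LSD contrasts), filters, background subtraction, the replicate block and leaving out mice or lanes. The fit and the permutation test were checked on simulated data with known changes. The members and lists were chosen with earlier results of these data known. Named miRNAs were the 2 members, probes with their seed, the 5 miRNAs most correlated with each, up to 4 per list with the smallest p at the high dose, and control probes; neighbouring pairs, miR-21 at the low dose and other list members that did not pass were added after their values were seen.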

Additional observations from a re-analysis of the deposited data

Results flagged for a closer look

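Low dose mouse 1 stood apart in the log2 ratio of miR-222 to miR-221, at 1.07 against 0.56 to 0.64 in the other low dose mice. Its gap to the nearest mouse was 0.855 of the group's range, above Dixon's critical value of 0.829 for 4 samples. Chance flags about 5% of groups, and 6 groups of 4 were examined here. Its miR-221 was the lowest of the low dose, at 108 normalized counts. Without this mouse the log2 ratio at the low dose was 1.18 above that of controls, against 1.30 with it.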

How the results depend on the processing

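The rise of miR-222 passed in 25 of 26 alternatives at each dose and in 24 of 25 over both doses. It ended with scaling to the 4 mRNA reference probes, at 0.74, 0.65 and 0.69 on the log2 scale. Leaving out single mice gave 0.84 to 0.98 at the low dose and 0.85 to 1.03 at the high dose, all past the threshold. miR-221 stayed below control and did not pass in any alternative, from -0.59 to -0.06 at the low dose and -0.53 to -0.07 at the high dose. Scaling to positive controls moved the median of all miRNAs by 0.19 at the low dose and 0.16 at the high dose, relative to which miR-222 stood at 0.92 and 0.99 and miR-221 at -0.36 and -0.23. Background subtraction enlarged miR-222 to 1.10 and 1.14 and the one-way F of the ratio kept an exact permutation p of 0.00762 to 0.0393 over 13 alternatives. The ratio over both doses, adjusted over 4 contrasts, went from 0.0485 to between 0.0667 and 0.178 without single mice and 0.143 without the 3 lanes with the highest NEG_C.

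Differences between the doses changed sign. miR-221 turned to -0.0145 with scaling to Actb, Gapdh and Rpl19, and ran from -0.0499 to 0.28 without single mice. miR-222 turned to -0.0925 with the 4 mRNA probes and -0.0858 with the 3, and ran from -0.0581 to 0.12 without single mice. The difference in log2 ratio ran from -0.24 to 0.15 without single mice.

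At the low dose 12 calls became 0 with the 4 mRNA probes (edgeR; 56 at an unadjusted p under 0.05 as reported), 20 with DESeq2, 44 with the methods' analysis of variance unadjusted, 3 without those 3 lanes, and 3 to 13 without single mice (6 without control mouse 1 or low dose mouse 2, 4 without control mouse 2, 3 without low dose mouse 4). At the high dose 37 became 18 with positive controls, 2 with the 4 mRNA probes, 16 with the 3 and 21 without those lanes. Between doses 1 became 0 with positive controls and with both mRNA scalings (27 at an unadjusted p under 0.05 as reported), 4 with DESeq2, 28 with the methods' analysis unadjusted and 2 after Benjamini-Hochberg, and 1 to 14 without single mice (14 without high dose mouse 3, 2 without high dose mouse 2 and 2 without low dose mouse 3). Over both doses 36 became 15 with positive controls, 2 with the 4 mRNA probes, 19 with the 3 and 15 without those lanes. The cause was not tested.

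Deviations of same-numbered mice correlated with r from -0.29 to 0.40 over 10 pairs (median -0.04). For mice with other numbers r ran from -0.39 to 0.26 over 30 pairs (median 0.03). These ranges show no clear pairing by number but cannot exclude one. With the replicate number as a block miR-222 stood at 0.91 and 0.93 and miR-221 at -0.50 and -0.42 (edgeR adjusted p = 0.247 and 0.321), and no call of theirs changed. Counting error alone gives miR-221 and miR-222 a coefficient of variation of 5.48% to 10.9% per mouse, to which differences between mice add. Having 3 control mice limits every comparison.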
